A study of Mus musculus with 11 samples.

Results

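The DNA replication and mitosis genes described here are 35 mouse genes chosen by symbol, 15 that act in or just before S phase and 20 that act in mitosis. Each gene was followed through 1 probe set, the one with the highest mean deposited signal over 11 arrays among probe sets annotated with that symbol alone. Of the 35, 34 had such a probe set, out of 18193 genes with one in the whole table. Ccnb1, the cyclin B1 gene, had none under its symbol in the annotation used, so only its promoter is counted here. Total RNA of the tibialis anterior, a shin muscle rich in fast fibres, had been measured on 11 Affymetrix arrays in 4 groups. The denervated mutant group (3 arrays) carried a floxed and a minus allele of Runx1 together with the MCK::cre transgene (runx1f/-; MCK::cre), and its muscle had been without its nerve for 3 days. The innervated mutant group (2 arrays) had the same genotype with the nerve in place. The denervated control group (3 arrays, denervated for 3 days by title) and the innervated control group (3 arrays) carried runx1f/- without the transgene, so that every group, controls included, had 1 Runx1 allele marked minus. For denervated control 3 the label also carries a treatment note with 5 days in place of 3. MCK::cre expresses Cre recombinase from the muscle creatine kinase promoter, which is active in muscle fibres, so that the other cells of the tissue would keep the floxed allele. The labels do not say which animals the arrays came from or how old they were, so p-values measure the spread between arrays, which may in part be technical.

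Cells that divide copy their DNA in S phase and separate it in mitosis. The S-phase genes encode the MCM helicase that unwinds DNA at replication origins, the sliding clamp PCNA that holds the polymerases, and the enzymes that make deoxynucleotides, with ribonucleotide reductase at the rate-limiting step. The mitotic genes encode cyclin-dependent kinase 1 and its cyclins, the kinases and motors of the spindle, and the proteins that hold and sort chromosomes. The nuclei of mature muscle fibres have left the cell cycle, while satellite cells (the stem cells of muscle), macrophages, endothelial cells and fibroblasts of the same tissue can divide. In a whole-muscle extract, fewer cells of a type and less RNA per cell cannot be told apart.

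In the probe set used for Runx1, the targeted gene, the signal was 20403, 20449 and 23185 in denervated mutant, 288 and 395 in innervated mutant, 23499, 25898 and 24353 in denervated control and 504, 519 and 179 in innervated control muscle. The sources used here do not place this probe set within or outside the floxed stretch, so its signal checks the denervation and not the deletion. All 18 muscle fibre markers had group means above the signals of the control probe sets for the bacterial gene trp, which lay between 13.8 and 440 and serve here as a measure of background. Medians per array lay between 442.5 and 604.6. Precision is limited by how few arrays each group has, and signals are compared only within a probe set, since probe sets differ in brightness. The summed signals of marker lists given below are the exception, and brighter probe sets weigh more in them. Of the 34 genes, 29 had a probe set bright enough to be tested (above the median of its own array on at least 2 of the 11 arrays): 12 of 15 S-phase and 17 of 19 mitotic genes. Mcm10, Tyms, Cdc6, Bub1 and Cenpe were not tested. A gene could enter the test through its denervated arrays alone, so counts and medians over the tested members are descriptions of those 29.

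The promoters of the 3 genes of each role with the largest rises past the threshold in denervated control muscle (values below) are shown first, because 2 kinds of promoter word are known to mark the 2 roles. E2F sites (searched as TTTCCCGC, TTTCGCGC, TTTGCCGC and TTTGGCGC) are known from genes of the G1/S transition, and the cell cycle homology region or CHR (searched as TTTGAA and TTCGAA), often beside CCAAT boxes, from genes of G2 and mitosis. Both strands were searched, from 250 bases before to 50 bases after the start of each gene in RefSeq sequence of build GRCm38.p6, and capitals mark every match to an E2F, CHR or CCAAT word. The first 3 are S-phase genes, Rrm2 on the plus strand of chr12:24708004-24708303, Mcm5 on the plus strand of chr8:75109259-75109558 and Mcm6 on the minus strand of chr1:128359656-128359955. The others are mitotic genes, Prc1 on the plus strand of chr7:80294201-80294500 (the first of 2 entries in the table), Birc5 on the plus strand of chr11:117848987-117849286 and Ccnb2 on the minus strand of chr9:70421505-70421804.
Rrm2: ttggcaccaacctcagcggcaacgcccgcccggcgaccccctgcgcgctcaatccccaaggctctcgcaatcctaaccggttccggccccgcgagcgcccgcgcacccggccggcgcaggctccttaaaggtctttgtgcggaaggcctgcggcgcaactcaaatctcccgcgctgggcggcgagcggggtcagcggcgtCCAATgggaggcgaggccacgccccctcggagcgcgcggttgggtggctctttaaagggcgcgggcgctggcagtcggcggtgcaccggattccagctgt
Mcm5: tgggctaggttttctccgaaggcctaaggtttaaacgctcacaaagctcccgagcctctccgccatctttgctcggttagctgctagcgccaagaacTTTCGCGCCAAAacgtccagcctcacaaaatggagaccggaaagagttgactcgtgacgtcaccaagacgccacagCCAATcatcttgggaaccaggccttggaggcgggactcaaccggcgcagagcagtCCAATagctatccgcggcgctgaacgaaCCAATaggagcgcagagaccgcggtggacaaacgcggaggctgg
Mcm6: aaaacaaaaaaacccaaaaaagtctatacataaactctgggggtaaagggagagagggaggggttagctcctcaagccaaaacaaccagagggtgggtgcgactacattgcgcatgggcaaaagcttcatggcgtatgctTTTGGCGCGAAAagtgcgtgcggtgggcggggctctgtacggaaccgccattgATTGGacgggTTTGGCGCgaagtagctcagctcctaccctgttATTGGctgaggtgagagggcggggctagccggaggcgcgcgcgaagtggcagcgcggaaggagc
Prc1: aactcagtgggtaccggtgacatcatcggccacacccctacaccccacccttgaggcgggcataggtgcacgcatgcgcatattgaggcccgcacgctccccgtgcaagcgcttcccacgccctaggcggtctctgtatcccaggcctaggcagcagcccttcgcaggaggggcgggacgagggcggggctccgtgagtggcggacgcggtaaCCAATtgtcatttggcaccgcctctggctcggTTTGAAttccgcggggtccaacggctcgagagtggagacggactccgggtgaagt
Birc5: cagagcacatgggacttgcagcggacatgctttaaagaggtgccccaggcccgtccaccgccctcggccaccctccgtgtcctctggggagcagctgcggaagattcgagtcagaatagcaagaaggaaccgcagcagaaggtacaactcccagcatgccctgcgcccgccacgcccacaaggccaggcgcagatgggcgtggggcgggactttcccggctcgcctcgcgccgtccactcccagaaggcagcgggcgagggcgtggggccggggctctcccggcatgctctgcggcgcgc
Ccnb2: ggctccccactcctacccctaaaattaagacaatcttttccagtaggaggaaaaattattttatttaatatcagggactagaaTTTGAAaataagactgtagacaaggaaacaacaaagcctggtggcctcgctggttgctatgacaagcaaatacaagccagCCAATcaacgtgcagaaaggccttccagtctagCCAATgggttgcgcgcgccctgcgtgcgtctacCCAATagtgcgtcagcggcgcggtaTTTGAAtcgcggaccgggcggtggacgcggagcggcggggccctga
In the Mcm5 promoter 2 E2F words overlap, one on each strand, with first bases at -153 and -149 from the start. The Mcm6 promoter holds 3 E2F words, of which those at -110 and -106 overlap on opposite strands. The Rrm2 promoter has 1 CCAAT box at -50 and 0 matches to the E2F or CHR words. The Prc1 promoter has a CCAAT box at -37 and a CHR word at -5. The Ccnb2 promoter has CCAAT boxes at -87, -54 and -21 and CHR words at -167 and 5. The Birc5 promoter held 0 of these words and is therefore without capitals.

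Over all members with a promoter in the table, E2F words were in 5 of 13 S-phase promoters (38.5%) and 1 of 16 mitotic promoters (6.25%), beside 2.32% of 27025 promoters of all genes. The 16 mitotic promoters include that of Ccnb1, which had no probe set. CHR words were in 2 of 13 S-phase (15.4%) and 12 of 16 mitotic promoters (75%), beside 19.4% of all. CCAAT was in 9 of 13 (69.2%) and 14 of 16 (87.5%), beside 37.9% of all. E2F words were thus more frequent in the S-phase promoters and CHR words in the mitotic ones, as shares of small lists. A RUNX word (TGTGGT, both strands) was in 4 of 13 S-phase promoters (30.8%; Mcm3, Mcm10, Rrm1 and Tk1) and 2 of 16 mitotic promoters (12.5%; Plk1 and Kif11), beside 16.9% of all promoters, and in 0 of the 6 promoters printed above. These matches describe letters in a window and do not show a site in use.

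After denervation, about the same numbers of replication and mitosis genes rose in both genotypes. In mutant muscle 13 of the 29 tested members were higher and 1 was lower in denervated than in innervated muscle, where 16.7% of all 12192 tested genes were higher and 13.9% lower. In control muscle 14 were higher and 1 was lower, where 18.1% of all tested genes were higher and 16.4% lower. The counts use limma on log2 signals with Benjamini-Hochberg adjustment over 26170 probe sets and a threshold of 0.05. In mutant muscle 5 of 12 S-phase and 8 of 17 mitotic genes were higher. In control muscle these were 6 of 12 and 8 of 17. Of the members, 11 were higher in both genotypes, 5 S-phase genes (Mcm5, Mcm6, Mcm7, Pcna and Rrm2) and 6 mitotic genes (Top2a, Mki67, Ccnb2, Cdk1, Birc5 and Nusap1). The 1 member that was lower was Aurka, in both. Without innervated mutant 1 the counts of higher members in mutant muscle were 3 S-phase and 4 mitotic genes, and without denervated control 3 those in control muscle were 6 and 8. Centring arrays on the hybridisation spike-in probe sets moved the median change of all probe sets to 0.38 in mutant and 0.81 in control muscle. With this centring 8 S-phase genes were higher in mutant muscle in limma. In control muscle 11 S-phase and 15 mitotic genes were higher and 0 members lower. The share of all tested genes called higher under this centring is not given here, and the 16.7% and 18.1% above do not apply to these counts. Changes below are relative to the deposited scaling, under which the median change of all probe sets was -0.09 in mutant and -0.02 in control muscle.

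**Figure D1:**
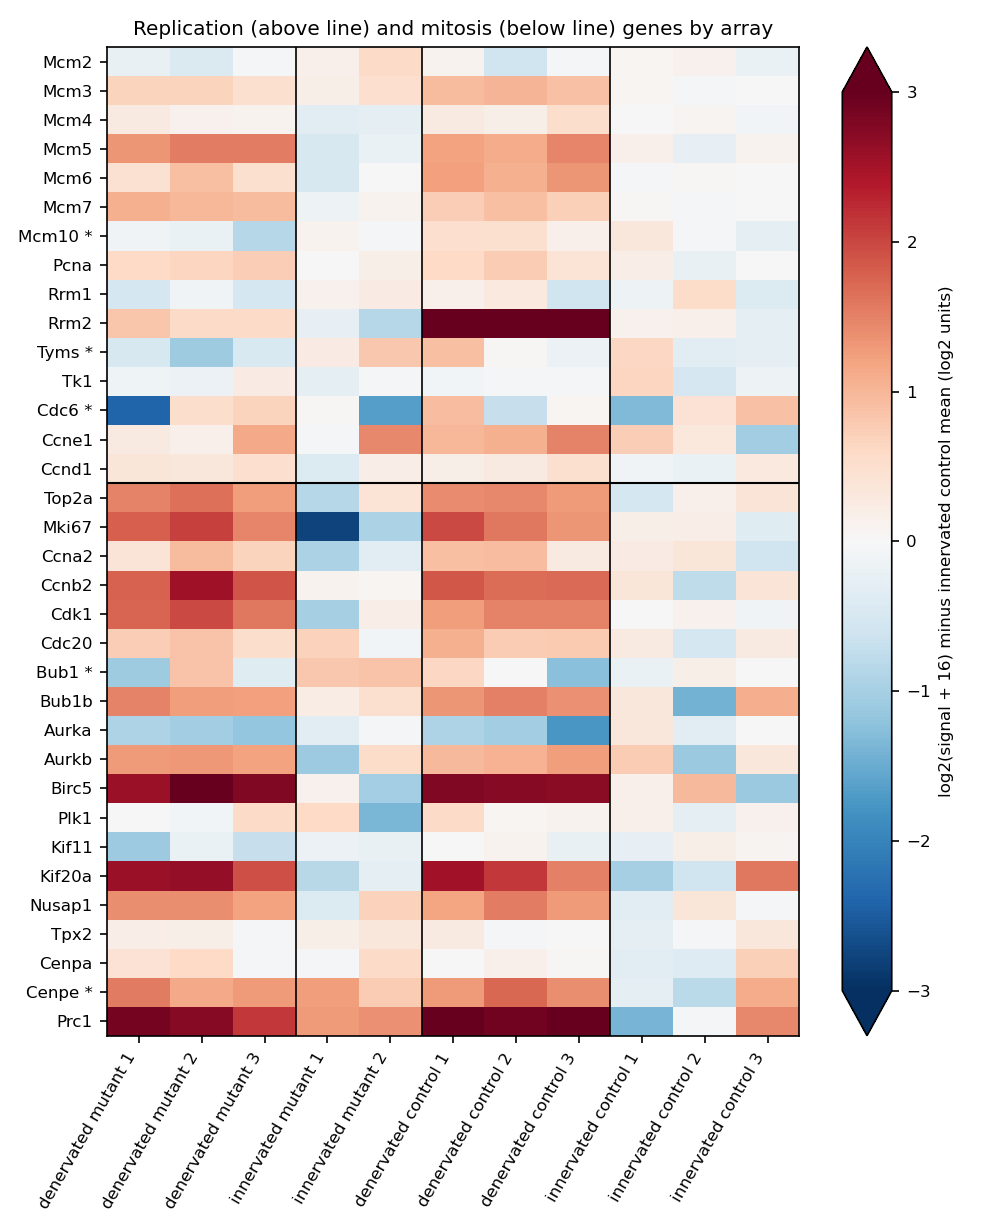
Heat map of the 34 genes with a probe set (rows) on the 11 arrays (columns), as log2(signal + 16) minus the mean of the 3 innervated control arrays; replication genes stand above the black line, mitosis genes below it, and an asterisk marks a gene that was not tested. Rrm2 is darkest in the 3 denervated control arrays (3.44 to 3.73) and between 0.56 and 0.83 in the 3 denervated mutant arrays.

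Among the tested members the median change was larger for the mitotic than for the S-phase genes. In mutant muscle it was 1.25 log2 units over 17 mitotic and 0.48 over 12 S-phase genes, beside -0.01 over all tested genes. In control muscle it was 1.33 and 0.69, beside -0.01 over all. Background bears more on the mitotic genes. Innervated means lay within the trp range for 12 of 19 mitotic genes in mutant and 11 of 19 in control muscle. For S-phase genes these were 3 of 15 in each. A dim gene could enter the test through its denervated arrays, so the difference in medians between the roles was not tested. On the single arrays, set against the mean of innervated control muscle, the mitotic median was 1.39, 1.30 and 1.20 in denervated mutant, -0.18 and 0.06 in innervated mutant, 1.19, 1.45 and 1.27 in denervated control and 0.15, -0.07 and 0.27 in innervated control muscle. The S-phase median was 0.41, 0.45 and 0.49 in denervated mutant, -0.20 and 0.14 in innervated mutant, 0.67, 0.83 and 0.61 in denervated control and 0.05, 0 and -0.04 in innervated control muscle. For both roles every denervated array therefore lay above every innervated array. The S-phase medians of the denervated mutant arrays lay below those of the denervated control arrays, also without Rrm2 (0.36, 0.33 and 0.48 against 0.61, 0.77 and 0.52), while the mitotic medians of these groups overlapped. Gene by gene, the 11 tested S-phase genes other than Rrm2 had a median genotype difference of only -0.05 in denervated muscle. These differences ran from -0.66 to 0.23, so they went both ways. By the arrays alone, 18 of the 29 tested members had all denervated above all innervated arrays in mutant muscle and 18 in control muscle, where 31.2% and 24.2% of all tested genes did. All denervated lay below all innervated arrays for 3 tested members in mutant muscle (Mcm2, Rrm1 and Aurka) and 1 in control muscle (Aurka), where 29.5% and 22.6% of all tested genes did. Of the 5 untested members, Mcm10 and Tyms lay lower in this way in mutant and Cenpe higher in control muscle.

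The MCM genes encode the 6 subunits of the replicative helicase (Mcm2 to Mcm7). In denervated muscle Mcm5, Mcm6 and Mcm7 rose in both genotypes and Mcm3 rose in control muscle, while Mcm2 and Mcm4 did not pass the test in either. Mcm5 signals were 1675, 1931 and 1951 in denervated mutant against 472 and 576 in innervated mutant muscle, and 1541, 1449 and 1846 in denervated control against 730.5, 549 and 714 in innervated control muscle. Mcm5 rose by 1.79 ± 0.22 log2 units in mutant (3.47-fold; adjusted p = 5.55e-05) and by 1.26 ± 0.19 in control muscle (2.4-fold; adjusted p = 0.000287), with errors given here and below as SE of the fit. The denervated arrays of both genotypes overlapped and lay above all innervated arrays. Mcm7 signals were 7117, 6773 and 6565 in denervated mutant against 3047 and 3652 in innervated mutant muscle, and 5612, 6320.3 and 5539 in denervated control against 3446, 3314 and 3396 in innervated control muscle. Mcm7 rose by 1.03 ± 0.15 in mutant (2.04-fold; adjusted p = 0.000212) and by 0.78 ± 0.13 in control muscle (1.71-fold; adjusted p = 0.000587). Its denervated arrays too stood clear of the innervated ones in both genotypes. Averaged over its tested probe sets, the change of Mcm7 in mutant muscle was 0.66 (adjusted p = 0.00388). The second brightest of its 4 probe sets rose as well, by 0.84 in mutant (adjusted p = 0.00247) and 0.77 in control muscle (adjusted p = 0.00178). The remaining ones did not pass in either genotype. They gave 0.40 (adjusted p = 0.128) and 0.37 (adjusted p = 0.271) in mutant and 0.35 (adjusted p = 0.126) and 0.53 (adjusted p = 0.0753) in control muscle.

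Mcm6 had signals of 2472, 3389.7 and 2512 in denervated mutant against 1278 and 1817 in innervated mutant muscle, and 4242, 3761 and 4507 in denervated control against 1722, 1851 and 1827 in innervated control muscle. All denervated arrays lay above all innervated arrays within each genotype, and the denervated mutant arrays lay below the denervated control arrays. Mcm6 rose by 0.85 ± 0.20 in mutant (1.8-fold; adjusted p = 0.00685) and by 1.20 ± 0.18 in control muscle (2.3-fold; adjusted p = 0.000219). Without innervated mutant 1 the change in mutant muscle was 0.60 (adjusted p = 0.0967). A dimmer Mcm6 probe set rose in both genotypes as well, by 2.11 and 1.90 (adjusted p = 0.000365 in mutant and 0.000258 in control muscle). Mcm3 had signals of 1876, 1859.7 and 1634 in denervated mutant against 1328 and 1649 in innervated mutant muscle, and 2264, 2386 and 2151 in denervated control against 1211, 1132 and 1158 in innervated control muscle. The control groups were apart and the mutant groups overlapped. The change was 0.27 ± 0.17 in mutant (adjusted p = 0.272) and 0.95 ± 0.15 in control muscle (1.93-fold; adjusted p = 0.000462), and the difference between these changes was -0.68 ± 0.23 (adjusted p = 0.408). Of the other 3 tested Mcm3 probe sets, 2 gave the same calls, with 0.98 (adjusted p = 0.0525) and 0.94 (adjusted p = 0.281) in mutant and 1.11 (adjusted p = 0.0154) and 1.58 (adjusted p = 0.0462) in control muscle. The remaining 1 gave the opposite calls, 1.01 in mutant (adjusted p = 0.0293) and 0.74 in control muscle (adjusted p = 0.0618). Mcm2 changed by -0.61 ± 0.24 in mutant (adjusted p = 0.0781) and -0.18 ± 0.21 in control muscle (adjusted p = 0.563), and Mcm4 by 0.47 ± 0.17 (adjusted p = 0.0569) and 0.32 ± 0.15 (adjusted p = 0.132).

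Pcna encodes the clamp that tethers DNA polymerases to their template, and it also serves DNA repair. Pcna signals were 18655, 19051 and 20389.7 in denervated mutant against 12112 and 13751 in innervated mutant muscle, and 18684, 20868 and 16174 in denervated control against 14080, 10475 and 12445 in innervated control muscle. Both genotypes had all denervated above all innervated arrays, by a modest margin. Pcna rose by 0.58 ± 0.16 in mutant (1.5-fold; adjusted p = 0.017) and by 0.59 ± 0.14 in control muscle (1.51-fold; adjusted p = 0.00704). The mutant change was 0.49 without innervated mutant 1 (adjusted p = 0.124) and 0.55 without denervated mutant 3 (adjusted p = 0.0597). The deoxynucleotide genes other than Rrm2 did not pass the test: Rrm1, the large subunit of ribonucleotide reductase, changed by -0.57 ± 0.29 in mutant (adjusted p = 0.171) and -0.05 ± 0.26 in control muscle (adjusted p = 0.911). Tk1, thymidine kinase of the salvage pathway, changed by 0.15 ± 0.31 (adjusted p = 0.761) and -0.06 ± 0.28 (adjusted p = 0.897). Tyms, thymidylate synthase, was within the trp range in all 4 groups.

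Of the G1 cyclins, Ccnd1 (cyclin D1) had signals of 3519.8, 3452 and 3901 in denervated mutant against 2058 and 3158 in innervated mutant muscle, and 3089, 3302 and 3813 in denervated control against 2566, 2394 and 3359 in innervated control muscle. The control groups overlapped and the mutant groups did not. Ccnd1 changed by 0.50 ± 0.21 in mutant (adjusted p = 0.095) and 0.30 ± 0.19 in control muscle (adjusted p = 0.256), and by 0.81 in mutant muscle without innervated mutant 2 (adjusted p = 0.0345). Ccne1 (cyclin E1) had signals of 473, 434 and 879 in denervated mutant against 382 and 1091 in innervated mutant muscle, and 795, 831 and 1126 in denervated control against 659, 493 and 181 in innervated control muscle. Here the mutant groups overlapped and the control groups did not. The change was -0.19 ± 0.54 in mutant (adjusted p = 0.825) and 1.18 ± 0.48 in control muscle (adjusted p = 0.0832), and in control muscle a dimmer probe set gave 2.19 (adjusted p = 0.00503). Without innervated control 1 the control change of Ccne1 was 1.54 (adjusted p = 0.0435). With the replicate number as a block in the 6 control arrays, the change of 1.18 in Ccne1 had an adjusted p of 0.0468, and that of 0.70 in Ccna2 (cyclin A2) one of 0.0306.

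Rrm2 encodes the small subunit of ribonucleotide reductase, the subunit made mainly in S phase. It had the largest change of any S-phase gene in control muscle and was the 1 member past the threshold between the genotypes. Rrm2 signals were 1488, 1240.2 and 1236 in denervated mutant against 701 and 452 in innervated mutant muscle, and 9212, 10944 and 11198 in denervated control against 916, 922 and 681 in innervated control muscle. All 3 denervated control arrays lay far above the other 8, and the denervated mutant arrays lay just above the innervated ones. Rrm2 rose by 1.20 ± 0.22 in mutant (2.3-fold; adjusted p = 0.00147) and by 3.62 ± 0.20 in control muscle (12.3-fold; adjusted p = 5.3e-08). The mutant change minus the control change was -2.42 ± 0.30 (adjusted p = 0.00605).

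Between genotypes in denervated muscle, Rrm2 was the 1 of 29 members past the threshold, where 2.17% of all tested genes were, and it was 7.83-fold lower in mutant than in control muscle (-2.97 ± 0.20; adjusted p = 1.74e-05). In the interaction it was again the 1 of 29, where 0.262% of all tested genes were. In innervated muscle Rrm2 differed by -0.55 ± 0.22 (mutant minus control; adjusted p = 0.998). Both other Rrm2 probe sets were brightest in denervated control muscle too. One had 904, 945 and 643 in denervated mutant, 615 and 339.9 in innervated mutant, 5709.8, 7748 and 6508 in denervated control and 628, 697 and 692 in innervated control muscle. The other had 861, 789 and 752 in denervated mutant, 684 and 396 in innervated mutant, 7545, 7021 and 5751 in denervated control and 327, 838 and 439.9 in innervated control muscle. In each, denervated control muscle stood apart from all other arrays. Their genotype differences in denervated muscle were -2.99 (adjusted p = 3.86e-05) and -3.05 (adjusted p = 0.000194), and their interactions were -2.45 (adjusted p = 0.0144) and -3.12 (adjusted p = 0.0147). For denervation in mutant muscle they gave 0.82 (adjusted p = 0.0355) and 0.60 (adjusted p = 0.208), so the mutant rise passed in 2 of 3 probe sets. Among 26170 probe sets the 3 ranked 17, 18 and 19 for the most negative genotype difference in denervated muscle. An exact two-sided permutation test of the 3 denervated mutant against the 3 denervated control arrays gave p = 0.1 for each probe set, the smallest that 3 against 3 arrays allow.

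**Figure D2:**
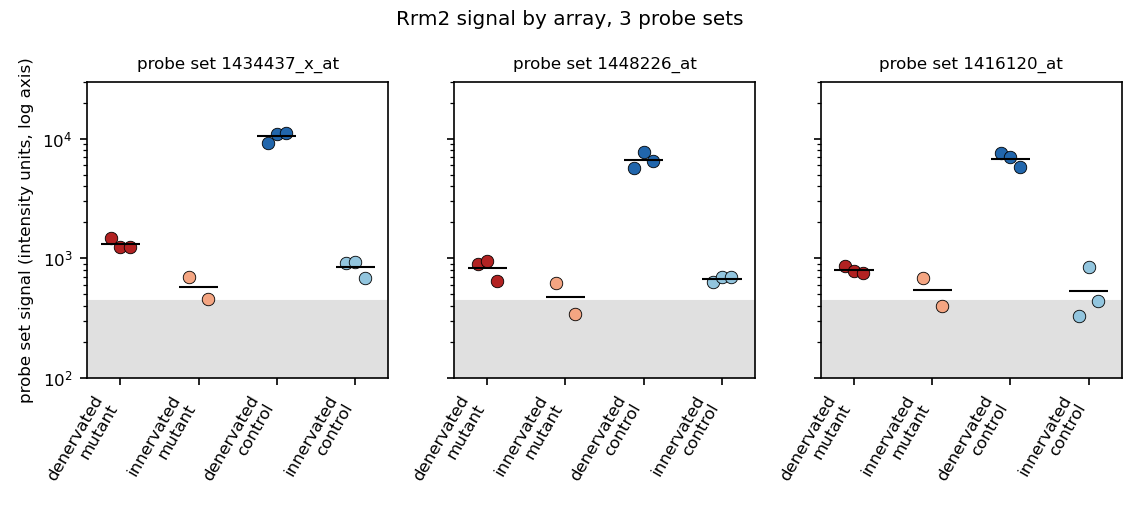
Signal of the 3 Rrm2 probe sets (log axis, intensity units) on each array, with denervated mutant, innervated mutant, denervated control and innervated control muscle from left to right; points are arrays, bars are group means and the grey band covers the trp background signals up to 440. The 3 denervated control arrays lie between 5709.8 and 11198 over the 3 probe sets, and all other arrays lie at or below 1488.

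Birc5 encodes survivin, a subunit of the chromosomal passenger complex, which corrects the attachment of chromosomes to the spindle. Birc5 signals were 833, 1122 and 955 in denervated mutant against 137 and 53.9 in innervated mutant muscle, and 954, 926 and 896 in denervated control against 141, 259 and 48.6 in innervated control muscle. All denervated arrays stood clear of all innervated ones, and the 2 denervated groups overlapped. Birc5 rose by 3.24 ± 0.56 in mutant (adjusted p = 0.000912) and by 2.74 ± 0.50 in control muscle (adjusted p = 0.00107). Aurkb, the kinase of that complex, changed by 1.52 ± 0.63 in mutant (adjusted p = 0.0923) and 1.09 ± 0.56 in control muscle (adjusted p = 0.169), although its arrays did not overlap in either genotype. Aurkb passed in mutant muscle without innervated mutant 2 (2.34; adjusted p = 0.0433) and without innervated control 2 (1.52; adjusted p = 0.0385). The innervated means of Birc5 and Aurkb lay within the trp range in both genotypes, as did those of Prc1, Kif20a, Ccnb2, Cdk1, Nusap1, Bub1b, Plk1, Bub1 and Cenpe, and that of Mki67 in mutant muscle. For these genes the size of a fold rests on the background, so log2 changes are given without a fold. Denervated means within that range numbered 4 mitotic genes in mutant muscle (Bub1, Plk1, Kif11 and Cenpe) and 3 in control muscle (Bub1, Aurkb and Kif20a).

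Prc1 encodes a protein that bundles microtubules of the spindle midzone. Prc1 signals were 1111, 1010.3 and 659.7 in denervated mutant against 359 and 384 in innervated mutant muscle, and 1599.5, 1141 and 1403 in denervated control against 43.2, 131 and 405 in innervated control muscle. The denervated mutant arrays lay below the denervated control arrays, and the innervated control arrays spread over a wide range. Prc1 changed by 1.25 ± 0.60 in mutant muscle (adjusted p = 0.142) and rose by 3.17 ± 0.53 in control muscle (adjusted p = 0.000601). The difference between these changes was -1.92 ± 0.80 (adjusted p = 0.584), so it did not pass. A dimmer Prc1 probe set gave smaller values, 1.11 in mutant (adjusted p = 0.073) and 2.20 in control muscle (adjusted p = 0.000758). Its difference between the changes was -1.09 (adjusted p = 0.722). The mutant change of Prc1 passed without innervated control 1 (adjusted p = 0.0417) or 3 (adjusted p = 0.0374), at the same value of 1.25. Kif20a, a kinesin needed for cytokinesis, had signals of 546, 564 and 341 in denervated mutant against 36.2 and 60.3 in innervated mutant muscle, and 522, 390.1 and 252 in denervated control against 31.0, 46.2 and 265 in innervated control muscle. One innervated control array lay within the range of the denervated control arrays. Kif20a rose by 2.95 ± 0.84 in mutant (adjusted p = 0.0201) and changed by 2.05 ± 0.75 in control muscle (adjusted p = 0.0562). In control muscle Kif20a passed without innervated control 3 (2.84; adjusted p = 0.0128) or innervated mutant 1 (2.05; adjusted p = 0.0475). In mutant muscle its call was lost without innervated mutant 1 (2.68; adjusted p = 0.0892), denervated mutant 1 (2.85; adjusted p = 0.0665) or denervated mutant 2 (2.83; adjusted p = 0.0769). Nusap1, which binds spindle microtubules, rose by 1.19 ± 0.36 in mutant (adjusted p = 0.0251) and by 1.33 ± 0.32 in control muscle (adjusted p = 0.00653). The mutant call of Nusap1 was lost without innervated mutant 1 (0.64; adjusted p = 0.252) and without any 1 of the denervated mutant arrays (adjusted p from 0.0516 to 0.0716). The spindle genes Kif11 and Tpx2 did not pass in either genotype, with changes between -0.46 and 0.08.

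Cdk1 encodes the kinase that starts mitosis, and Ccnb2 and Ccna2 encode 2 of its cyclins. Cdk1 signals were 1040.5, 1212 and 923 in denervated mutant against 141 and 345 in innervated mutant muscle, and 725, 866 and 868 in denervated control against 294, 326 and 274 in innervated control muscle. The denervated arrays were all above the innervated ones, and those of mutant muscle were above those of control muscle. Cdk1 rose by 2.17 ± 0.35 in mutant (adjusted p = 0.000621) and by 1.41 ± 0.32 in control muscle (adjusted p = 0.00432), and its genotype difference in denervated muscle was 0.36 ± 0.32 (adjusted p = 0.762). Ccnb2 signals were 877, 1495 and 948 in denervated mutant against 265 and 255 in innervated mutant muscle, and 924, 821 and 825 in denervated control against 321, 138 and 323 in innervated control muscle. Within each genotype the groups did not overlap. Ccnb2 rose by 1.98 ± 0.38 in mutant (adjusted p = 0.00205) and by 1.75 ± 0.34 in control muscle (adjusted p = 0.00183). Ccna2, without innervated mutant 1, was at 1.00 in mutant muscle (adjusted p = 0.119). With all arrays Ccna2 rose by 1.31 ± 0.34 in mutant (2.48-fold; adjusted p = 0.0119) and changed by 0.70 ± 0.30 in control muscle (adjusted p = 0.101), where its dimmer probe set gave 1.04 (adjusted p = 0.0151).

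Mki67 encodes Ki-67, which coats mitotic chromosomes and is the usual marker of cycling cells. Mki67 signals were 2182, 2606 and 1723 in denervated mutant against 77.0 and 313 in innervated mutant muscle, and 2509, 1893 and 1584 in denervated control against 701, 710.4 and 474 in innervated control muscle. The denervated groups overlapped, and both innervated mutant arrays lay below the innervated control arrays. Mki67 rose by 3.62 ± 0.43 in mutant (adjusted p = 4.5e-05) and by 1.64 ± 0.38 in control muscle (3.11-fold; adjusted p = 0.00543). The mutant change was 2.71 without innervated mutant 1 and 4.54 without innervated mutant 2, and on both of these arrays its signal lay within the trp range. The mutant change minus the control change was 1.99 ± 0.57 (adjusted p = 0.277), and the genotype difference was -1.86 ± 0.43 in innervated muscle (adjusted p = 0.734) and 0.13 ± 0.38 in denervated muscle (adjusted p = 0.95). Without innervated mutant 2 the interaction was 2.90 (adjusted p = 0.0416) and the innervated difference -2.77 (adjusted p = 0.0436), so these calls rest on which of the 2 innervated mutant arrays is used. Top2a, the topoisomerase that untangles sister chromatids, rose by 1.68 ± 0.36 in mutant (3.2-fold; adjusted p = 0.00409) and by 1.38 ± 0.32 in control muscle (2.61-fold; adjusted p = 0.00555). Without innervated mutant 1 the change of Top2a in mutant muscle was 1.04 (adjusted p = 0.0642). The mean over its tested probe sets was 1.10 in mutant and 0.78 in control muscle (adjusted p = 0.00929 and 0.0269). Its dimmer tested probe set did not pass in either (0.52 and 0.18).

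Of the checkpoint genes, Cdc20, an activator of the anaphase-promoting complex, changed by 0.41 ± 0.29 in mutant (adjusted p = 0.322) and rose by 0.87 ± 0.26 in control muscle (1.82-fold; adjusted p = 0.0242). Without denervated control 1 its control change was 0.77 (adjusted p = 0.0854), and without innervated control 2 it was 0.60 (adjusted p = 0.085). Its dimmer probe set rose in both genotypes, by 1.42 in mutant (adjusted p = 0.00625) and 1.26 in control muscle (adjusted p = 0.00542). Bub1b, a kinase-related protein of the spindle checkpoint, changed by 0.97 ± 0.57 in mutant (adjusted p = 0.234) and 1.41 ± 0.51 in control muscle (adjusted p = 0.0542). Without innervated control 3 the control change of Bub1b was 1.95 (adjusted p = 0.0102). Plk1, a mitotic kinase, and Cenpa, the histone of centromeres, did not pass in either genotype, with changes from 0.06 (Cenpa in control muscle) to 0.55 (Plk1 in mutant muscle).

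Aurka was the 1 member that fell. It encodes the Aurora A kinase, which acts at centrosomes and spindle poles. Aurka signals were 964, 877 and 810.3 in denervated mutant against 1453 and 1763 in innervated mutant muscle, and 951, 880 and 536 in denervated control against 2338, 1455 and 1805 in innervated control muscle. All denervated arrays lay below all innervated arrays, and the genotypes overlapped. Aurka was 1.8-fold lower in denervated than in innervated mutant muscle (-0.85 ± 0.27; adjusted p = 0.0349) and 2.36-fold lower in denervated than in innervated control muscle (-1.24 ± 0.24; adjusted p = 0.00177). With spike-in centring, which moved the median of all probe sets as given above, Aurka changed by -0.38 (adjusted p = 0.439) and -0.41 (adjusted p = 0.243). This centring moves all probe sets of an array alike, so relative to that shift the change of Aurka had to stay negative. The call in mutant muscle was also lost with median centring (-0.55; adjusted p = 0.12), with no filter on low values (adjusted p = 0.0627), with the replicate block in all 11 arrays (-0.74; adjusted p = 0.0658) and without any 1 of the 5 mutant arrays (-0.99 to -0.71; adjusted p from 0.0532 to 0.199).

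**Figure D3:**
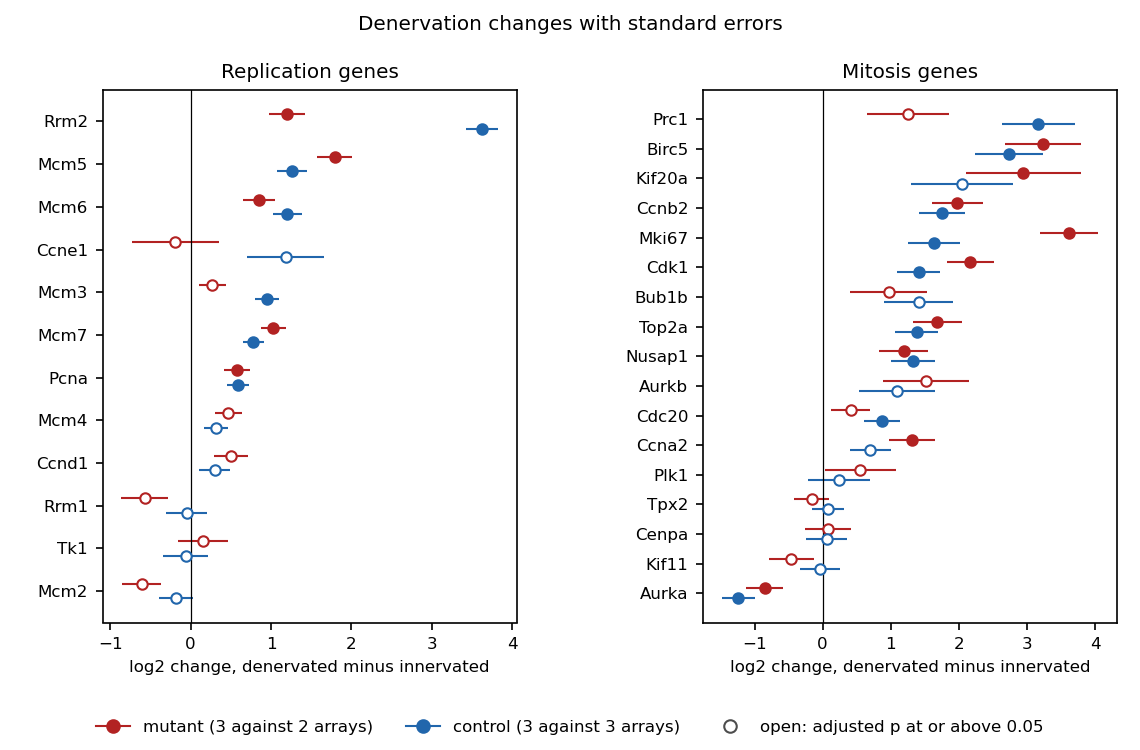
Denervation changes (log2 units, denervated minus innervated) of the 12 tested replication genes (left) and 17 tested mitosis genes (right), in mutant (red, above) and control muscle (blue, below); bars are standard errors and open symbols have an adjusted p at or above 0.05. Rrm2 lies at 1.20 in mutant and 3.62 in control muscle, and Aurka is the 1 filled symbol left of 0 in each genotype.

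Between genotypes the members other than Rrm2 did not pass the test. In denervated muscle the next smallest p-values among the members belonged to Mcm6 (-0.59 ± 0.18; adjusted p = 0.156) and Mcm3 (-0.34 ± 0.15; adjusted p = 0.427). In the probe sets used, both were lower on all 3 denervated mutant than on all 3 denervated control arrays. The other tested Mcm3 probe sets went the other way, with differences of 0.06, 0.30 and 0.36. The dimmer tested Mcm6 probe set gave -0.87 (adjusted p = 0.207). With spike-in centring, which moved the median of all probe sets to -0.39, Mcm6 was at -0.97 (adjusted p = 0.021). The 17 mitotic genes had genotype differences in denervated muscle between -0.62 and 0.36, with a median of 0.06, and the 12 S-phase genes a median of -0.10, beside 0.01 over all tested genes. In innervated muscle 0 of 29 members passed in limma, where 0% of all tested genes did. At an unadjusted p under 0.05 there were 3 of 29 members, Mki67, Rrm2 and Prc1 (1.33 ± 0.60; unadjusted p = 0.0442 in limma), beside 465 of 12192 tested genes. In denervated muscle 3 of 29 members and 1527 of 12192 tested genes had such a p. A p that misses the threshold does not show that the genotypes were alike, and the SE of these differences ran from 0.13 (Mcm7) to 0.75 (Kif20a) in denervated muscle.

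Other replication and mitosis genes were counted in the same way. Of 39 other tested DNA replication genes, 6 rose and 2 fell in mutant and 7 rose and 2 fell in control muscle, with medians of 0.07 and 0.09. The shares that rose were near those of all tested genes (16.7% and 18.1%). Those with the smallest p in control muscle were Cdt1, Pold2, Rpa1 and Dnmt1. Cdt1, which loads the MCM helicase onto origins, averaged 1316 ± 174 in denervated mutant, 555 ± 5.4 in innervated mutant, 2676 ± 949.6 in denervated control and 508 ± 64.5 in innervated control muscle (SD; n = 3, 2, 3 and 3). It rose by 1.21 ± 0.27 in mutant (adjusted p = 0.00571) and 2.31 ± 0.25 in control muscle (adjusted p = 1.48e-05), and its genotype difference in denervated muscle was -0.96 ± 0.25 (adjusted p = 0.0779). Pold2, a subunit of DNA polymerase delta, rose by 0.94 in mutant and 1.22 in control muscle, and Dnmt1, the maintenance DNA methyltransferase, by 1.08 and 0.83. The falls in both genotypes were Rpa1, a single-strand binding protein (-0.52 in mutant and -0.69 in control muscle), and Pola2, a subunit of DNA polymerase alpha (-1.17 and -0.79), of which Pola2 was named after its values were seen.

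Of 44 other tested mitosis genes, 13 rose in mutant and 14 in control muscle and 0 fell at that threshold in limma, with a median of 0.60 in each, where 16.7% and 18.1% of all tested genes rose. Stmn1, which destabilises microtubules, rose by 1.69 in mutant (adjusted p = 0.000293) and 1.49 in control muscle (adjusted p = 0.000242). Pbk, a mitotic kinase, rose by 1.03 in mutant (adjusted p = 0.033) and 1.62 in control muscle (adjusted p = 0.000964). Kif22, a chromosome-binding kinesin, rose by 1.13 and 1.19, and Hmgb2, a chromatin protein, by 1.58 and 0.84. A further 17 listed mitosis genes with a probe set were too dim to be tested.

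Of 25 tested G1 cyclin, CDK, RB and E2F genes, 7 rose and 4 fell in mutant and 6 rose and 4 fell in control muscle, where 16.7% of all tested genes rose and 13.9% fell in mutant and 18.1% rose and 16.4% fell in control muscle. Myc, a transcription factor of cell growth, averaged 3652 ± 587 in denervated mutant, 708 ± 62.9 in innervated mutant, 6191 ± 800.2 in denervated control and 705 ± 206 in innervated control muscle, and rose by 2.33 (adjusted p = 1.57e-05) in mutant and 3.14 (adjusted p = 3.28e-07) in control muscle. E2f4, an E2F that works mainly as a repressor, rose by 1.54 in mutant and 1.84 in control muscle. Rb1, the retinoblastoma protein that holds E2F factors in check, rose by 1.25 and 1.35. Tfdp2, an E2F partner, changed by -0.48 in mutant (adjusted p = 0.0562) and fell by 1.35 in control muscle (adjusted p = 2.77e-05).

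Among 14 tested CDK inhibitor and growth arrest genes, 4 rose and 5 fell in mutant and 5 rose and 4 fell in control muscle, with medians of -0.28 and -0.26, beside the same shares over all genes. Cdkn1a, which encodes the CDK inhibitor p21, averaged 36807 ± 5917 in denervated mutant, 2363 ± 311 in innervated mutant, 46013 ± 6863 in denervated control and 2932 ± 416 in innervated control muscle. It rose by 3.94 in mutant (adjusted p = 3.53e-08) and 3.96 in control muscle (adjusted p = 8.6e-09) beside 3.62 for Rrm2 in control muscle. Gadd45a, a stress-induced arrest gene, rose by 3.48 and 3.74, while its relative Gadd45g changed by -3.03 and -2.67 and Ccng1, cyclin G1, by -1.18 and -1.01, all past the threshold. Cdkn1c (p57) was lower in both genotypes (-1.02 and -0.97), and Cdkn2d (p19) changed by -0.97 in mutant (adjusted p = 0.00604) and -0.34 in control muscle (adjusted p = 0.231). Cdkn1b (p27), Cdkn2b (p15) and Cdkn2c (p18) did not pass in either, with changes from -0.50 to 0.31, and Cdkn2a was too dim to be tested. Between genotypes in denervated muscle, 1 of these 14 genes passed, where 2.17% of all tested genes did. It was Sesn1, a p53-induced stress gene (-0.93 ± 0.20, adjusted p = 0.036), named after its values were seen.

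**Figure D4:**
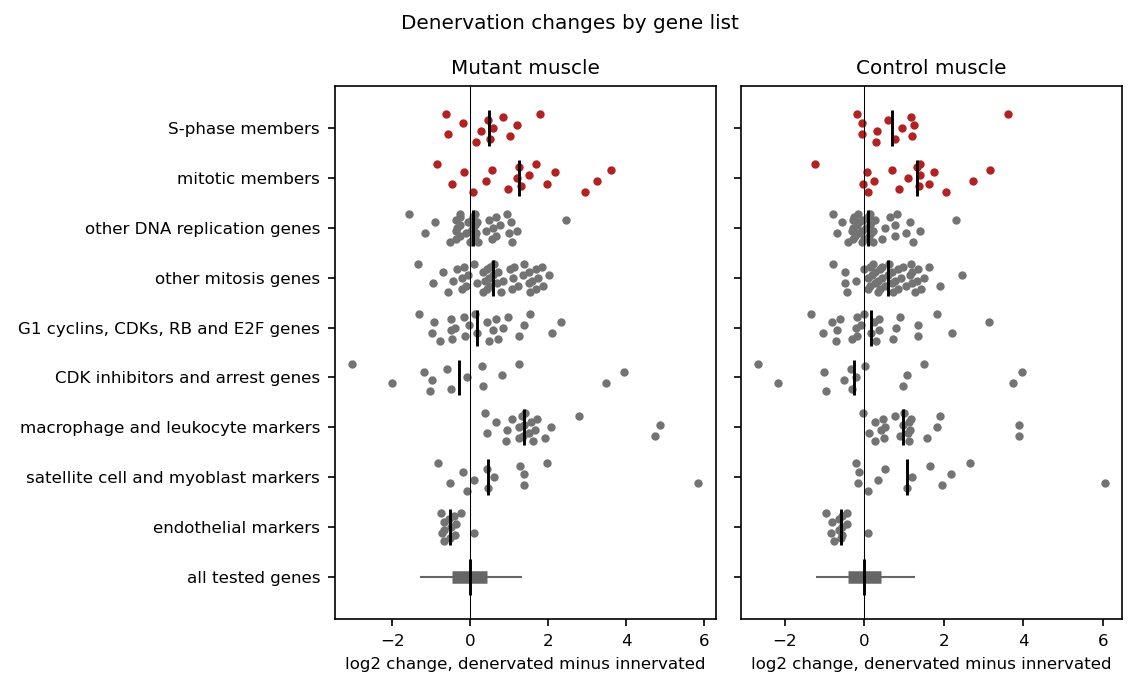
Denervation changes (log2 units, denervated minus innervated) of single genes by list, in mutant (left) and control muscle (right); red points are the replication and mitosis members, grey points the genes of the other lists, black bars list medians, and the bottom row shows all 12192 tested genes (box, middle 50%; line, 5th to 95th percentile, -1.29 to 1.33 in mutant and -1.21 to 1.27 in control muscle). Macrophage markers have medians of 1.39 and 0.99, and endothelial markers of -0.51 and -0.58.

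Of the marker lists of other cell types, those of macrophages, satellite cells and granulocytes (3 tested genes) had positive medians in both genotypes. Of 22 tested macrophage and leukocyte markers, 17 rose in mutant and 13 in control muscle and 0 fell at that threshold in limma, with medians of 1.39 and 0.99. Of all tested genes 16.7% rose and 13.9% fell in mutant, and 18.1% rose and 16.4% fell in control muscle. The summed signal of the 24 markers with a probe set ran from 170000 to 197000 in denervated mutant against 47400 to 54300 in innervated mutant muscle, and from 141000 to 196000 in denervated control against 62800 to 83000 in innervated control muscle. Cd68, a lysosomal protein of macrophages, rose by 4.87 in mutant and 3.89 in control muscle, Lgals3 by 4.74 and 3.89, Mrc1 by 1.38 and 1.11 and Csf1r by 1.06 and 0.97. The T-cell marker Cd3e and the B-cell marker Ms4a1 lay within the trp range in all 4 groups. Between genotypes in denervated muscle 0 of the 22 passed in limma, with 1 at an unadjusted p under 0.05, beside 1527 of 12192 tested genes. In innervated muscle 0 passed and 5 had such a p, beside 465 of 12192, with a median difference of -0.41. In the interaction 1 of the 22 passed, where 0.262% of all tested genes did. There 6 had such a p, beside 995 of 12192, with a median of 0.53. The 1 that passed was Ptprc, the pan-leukocyte marker CD45 (1.76, adjusted p = 0.0259), named after its values were seen.

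Of 13 tested satellite cell and myoblast markers, 5 rose and 1 fell in mutant and 8 rose and 0 fell in control muscle, with medians of 0.47 and 1.07. Beside them, 16.7% of all tested genes rose and 13.9% fell in mutant, and 18.1% rose and 16.4% fell in control muscle. The summed signal of 14 markers ran from 186000 to 203000 in denervated mutant against 102000 to 113000 in innervated mutant muscle, and from 197000 to 255000 in denervated control against 108000 to 133000 in innervated control muscle. Myog, which encodes myogenin and which denervated fibres also express, rose by 5.85 in mutant and 6.05 in control muscle, Sdc4 by 1.37 and 2.17, Myod1 by 1.98 and 1.96 and Cdh15 by 1.37 and 1.07. Myog averaged 68877 in denervated against 1241 in innervated mutant muscle, and 84877 against 1250 in control muscle. It therefore weighs heavily in the summed signal. Calcr lay within the trp range in all 4 groups, and Mymk in all but denervated control muscle. Between genotypes in denervated muscle 2 of the 13 passed, where 2.17% of all tested genes did. Both were lower in mutant muscle: Mymk, the fusion protein myomaker (-3.40 ± 0.50, adjusted p = 0.00315), and Itga7 (-1.29 ± 0.15, adjusted p = 0.00072), named after their values were seen. Mymk averaged 178 ± 139.7 in denervated mutant, 276 ± 35.2 in innervated mutant, 1897 ± 1028 in denervated control and 263 ± 50.1 in innervated control muscle. Over the 13 markers the genotype difference in denervated muscle had a median of -0.15 and ran from -3.40 to 0.43. Of 8 granulocyte markers with a probe set 3 were tested, with medians of 2.10 in mutant and 1.14 in control muscle. Of these, S100a8 alone rose, by 5.83 in mutant and 5.48 in control muscle. The part of these cell type markers in the changes of the members was not tested.

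Endothelial, fibroblast and muscle fibre markers had negative medians in both genotypes. Beside the counts that follow, 16.7% of all tested genes rose and 13.9% fell in mutant, and 18.1% rose and 16.4% fell in control muscle. Of 13 endothelial markers, 0 rose in limma in either genotype, and 5 fell in mutant and 8 in control muscle (Pecam1 -0.67 and -0.97, Tie1 -0.54 and -0.77). Of 13 fibroblast markers, 0 rose and 2 fell in mutant (Cd34 and Col3a1) and 1 rose (Mfap5) and 2 fell (Cd34 and Gsn) in control muscle. The fibroblast falls were near the shares of all tested genes. Of 7 Schwann cell markers, Ngfr and Gfap rose in mutant and Ngfr in control muscle, while Mbp and Pmp22 fell in both. Of 18 muscle fibre markers 17 fell in mutant and 15 in control muscle. Col3a1 and Gfap were named after their values were seen.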

How the data were processed

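The authors deposited 1 linear intensity per probe set and array, for 45101 probe sets. From the values themselves, each array had been scaled to a 2% trimmed mean of 2500. The software and background correction that made them are not given in the sources used here. Groups were taken from the sample titles. Gene symbols came from the platform annotation supplied with the series, in which 34945 probe sets outside the controls had 1 symbol and 932 listed probe sets had several, and the Entrez IDs of 34 members were found in the RefSeq gene table.

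Signals were used as log2(value + 16) with no further normalization, after leaving out 64 Affymetrix control probe sets and every probe set that exceeded the array's median on fewer than 2 of 11 arrays. limma 3.58.1 in R 4.3.3 fitted 1 mean per group to all 11 arrays (eBayes with trend), with Benjamini-Hochberg adjustment over 26170 probe sets in each of 5 comparisons and a threshold of 0.05. Errors of log2 changes are standard errors of the fit, and those of signals are standard deviations between arrays. The script was tested on simulated arrays.

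The members, the 13 gene lists and the tests were chosen with earlier results of these data known. Signals per array were given, in each role, for the 5 largest changes past the threshold in each genotype, for every fall, for the smallest p-values between genotypes and for Ccnd1 and Ccne1. From other lists up to 4 genes with the smallest p in control muscle and all CDK inhibitors were named. Deviations from the group means of control arrays with equal replicate number correlated at 0.11, 0.22 and 0.30 across probe sets, over 0.1 in every pair. In the mutant arrays these were 0.03 and 0.05, and between genotypes they ran from -0.18 to 0.02. The numbers were therefore taken to pair the control arrays, but only in the alternatives with a replicate block. The main fit left them out. These correlations are weak, and the labels do not say what the numbers mark. Alternatives were the pseudocount, the filter, quantile, median or spike-in scaling, the mean of a gene's probe sets, the variance model, the arrays in the fit, the replicate block and leaving out each array.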

Additional observations from a re-analysis of the deposited data

Results flagged for a closer look

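Rrm2, the small subunit of ribonucleotide reductase, stood out because its denervation change differed between the genotypes in the interaction term of the fit. The change in mutant minus that in control muscle was -2.42 log2 units (SE 0.30; limma adjusted p = 0.00605), from changes of 1.20 in mutant and 3.62 in control muscle. All 3 denervated mutant arrays lay below all 3 denervated control arrays in each of the 3 Rrm2 probe sets. Single arrays were not tested as outliers, since no group had 4 or more.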

How the results depend on the processing

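For Rrm2, the genotype difference in denervated muscle ranged from -3.35 to -2.87 log2 units over all alternatives (highest limma adjusted p = 0.000367) and the interaction from -2.78 to -2.11 (highest adjusted p = 0.0392), and both kept their call in each. With spike-in centring 11 S-phase and 15 mitotic members were higher in control muscle and 8 S-phase members in mutant muscle, and 2 members differed between genotypes in denervated muscle (Rrm2 and Mcm6). With median centring 8 S-phase members were higher in mutant muscle. The share of all tested genes called under each alternative is not given here. Leaving out 1 array at a time gave 6 to 7 S-phase and 7 to 10 mitotic members higher in control muscle. In mutant muscle it gave 3 to 6 S-phase and 4 to 9 mitotic members, the lowest counts without innervated mutant 1. The members past the threshold in innervated muscle between genotypes numbered 0 to 1 and in the interaction 1 to 2, the higher counts being Mki67 without innervated mutant 2. With the replicate block in all 11 arrays 5 S-phase and 8 mitotic members were higher in mutant and 6 and 8 in control muscle, and 7 and 9 when only the 6 control arrays were fitted with it. Beyond Aurka in mutant muscle, Ccne1 and Ccna2, the block changed no call of a member named in the report. Genes of the other lists were not followed through the alternatives. Of the calls of single members over all alternatives, 273 of those in mutant muscle kept direction and call and 21 lost the call, and 327 in control muscle kept both and 3 lost the call. None changed direction. Signals near background limit the mitotic genes most, since 12 of 19 in mutant and 11 of 19 in control muscle had innervated means within the trp range.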
